A study of Mus musculus with 23 samples.

Results

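The genes described here are the matrix metalloproteinases (Mmp), their tissue inhibitors (Timp), the ADAM, ADAMTS and ADAMTS-like families (Adam, Adamts, Adamtsl), the heparanase gene Hpse and the matricellular protein gene Postn, measured on arrays in mouse microglia. They were chosen by name: every probe set whose symbol is one of those family names followed by a number, plus Hpse and Postn. This gave 81 probe sets, 1 per gene, among the 22203 on the array, and 14 of them lay above background in at least 1 group. Background was the 95th percentile of the group means of 1450 probe sets for olfactory, vomeronasal and taste receptors, which microglia are not known to use, and it lay between 7.73 and 8.12 on the log2 scale of the deposited values.

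The 23 samples were CD45+ CD11b+ microglia from cortex and hippocampus, in 6 groups. For wild-type C57BL6 mice (WT) there were 4 young samples, aged 3 months, and 4 aged 12 months. The APPswlnd line (APP), a transgenic model of amyloid deposition, gave 3 samples at 3 months, an age labelled as before pathology, and 4 samples of Clec7a+ cells, labelled active, at 12 months (gated APP). The P301S line PS19 (TAU), a transgenic model of tau pathology, gave 4 samples at 3 months and 4 samples of Clec7a+ active cells at the later age (gated TAU); the age and source fields put these 4 at 9 months and the titles at 12, and 9 was used. Clec7a is a lectin receptor of activated microglia, and no such gate is named for WT or for the young samples. Strain, pathology and gate therefore differ together between a gated group and WT at 12 months, and for TAU age differs too, so that their parts cannot be told apart. Between gated APP and gated TAU, line, pathology and age likewise differ together. The labels call the samples biological replicates without saying that each was a separate animal, so p-values measure the spread between samples.

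Metalloproteinases and the catalytically active ADAMs are zinc enzymes that are made as inactive precursors. Secreted Mmps cut matrix proteins and bioactive molecules around the cell, membrane-bound Mmps and ADAMs act at the cell surface, where ADAMs release the outer parts of receptors and cytokines, and ADAMTS enzymes cut matrix proteoglycans and procollagens. Timps bind the active site of these enzymes, and Timp2 together with Mmp14 also takes part in the activation of the Mmp2 precursor. Heparanase cuts heparan sulfate chains, and periostin, the product of Postn, binds collagen and integrins in the matrix.

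The start regions of the 4 genes below are shown because these genes had the largest differences between gated and ungated or between the gated groups among the members with a RefSeq start in the table used. Each line gives the 250 bases before an annotated start (RefSeq, GRCm38.p6), 5′ to 3′ on the gene's strand. Capitals mark matches to TGANTCA, the AP-1 motif, or to GAGGAA, the core of the PU.1 motif, searched on both strands. Mmp12 has an upstream window at chr9:7344147-7344396 (+ strand), with TTCCTC, the reverse complement of the PU.1 core, beginning 86 bases before the start, and a downstream window at chr9:7347124-7347373 (+ strand), with TGAGTCA beginning 44 bases before the start. Postn has windows at chr3:54359017-54359266 and chr3:54360857-54361106 (+ strand), Timp2 at chr11:118355412-118355661 (- strand) and Hpse at chr5:100719717-100719966 (- strand), and none of these 4 windows holds either motif.
Mmp12, upstream start: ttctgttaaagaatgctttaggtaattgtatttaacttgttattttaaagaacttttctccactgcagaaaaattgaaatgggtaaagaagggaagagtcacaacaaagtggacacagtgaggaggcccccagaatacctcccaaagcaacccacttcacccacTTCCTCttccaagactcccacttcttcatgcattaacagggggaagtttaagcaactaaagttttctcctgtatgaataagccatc
Mmp12, downstream start: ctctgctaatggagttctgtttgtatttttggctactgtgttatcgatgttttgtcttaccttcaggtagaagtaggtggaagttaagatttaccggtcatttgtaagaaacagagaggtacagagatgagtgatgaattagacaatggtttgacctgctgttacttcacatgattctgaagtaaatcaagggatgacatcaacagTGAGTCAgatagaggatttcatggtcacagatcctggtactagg
Postn, upstream start: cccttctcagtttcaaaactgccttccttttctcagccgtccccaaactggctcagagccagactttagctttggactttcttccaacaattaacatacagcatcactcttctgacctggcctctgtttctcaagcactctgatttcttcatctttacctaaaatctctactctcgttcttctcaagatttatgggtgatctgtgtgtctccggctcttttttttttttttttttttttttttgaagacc
Postn, downstream start: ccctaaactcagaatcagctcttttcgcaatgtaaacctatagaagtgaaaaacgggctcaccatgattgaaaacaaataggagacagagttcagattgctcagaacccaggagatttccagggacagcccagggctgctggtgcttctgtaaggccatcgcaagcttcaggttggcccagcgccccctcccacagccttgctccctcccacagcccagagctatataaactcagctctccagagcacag
Timp2: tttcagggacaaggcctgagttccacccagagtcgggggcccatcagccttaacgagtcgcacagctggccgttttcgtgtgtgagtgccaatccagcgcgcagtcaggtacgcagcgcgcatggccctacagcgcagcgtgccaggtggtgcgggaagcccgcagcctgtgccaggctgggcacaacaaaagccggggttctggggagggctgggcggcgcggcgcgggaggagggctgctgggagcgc
Hpse: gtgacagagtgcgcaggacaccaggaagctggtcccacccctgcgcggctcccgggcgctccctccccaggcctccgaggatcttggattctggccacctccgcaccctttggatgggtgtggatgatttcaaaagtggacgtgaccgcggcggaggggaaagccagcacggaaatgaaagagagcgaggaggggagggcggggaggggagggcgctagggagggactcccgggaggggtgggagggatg

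Both Mmp12 windows were poor in G and C, at 40.0% and 39.6%, whereas the Timp2 and Hpse windows held 68.0% and 66.8%, against a median of 52.4% over all windows in the table. The Postn windows held 40.4% and 52.0%. Of the 81 genes, 50 had a window in the table, with 56 windows in all. TGANTCA stood in 12 of those 56 windows (21.4%) and in 6.75% of all 32851 windows. The 12 windows belonged to Adam19, Adam20, Adam25, Adam29, Mmp1a, Mmp1b, Mmp3, Mmp7, Mmp10, Mmp12, Mmp13 and Mmp20, and of these genes Mmp12 and Mmp20 lay above background in these samples. GAGGAA stood in 10 of the 56 windows (17.9%) and in 23.3% of all windows. A match is a stretch of letters and not a measured binding site. The differences between these shares were not tested, and windows of related genes need not be independent of each other.

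By family, 5 of 21 Mmps, 2 of 4 Timps, 4 of 31 Adams, 1 of 18 Adamts genes, 1 of 5 Adamtsl genes and Postn lay above background in at least 1 group. Adam9, Adam15, Adam17, Adamts1, Adamtsl4, Mmp2 and Timp2 did so in all 6 groups. Postn was above background in 5 groups, Mmp14 in 3 and Mmp12 in 2, the gated ones. Adam22, Mmp11, Mmp20 and Timp4 were above it in 1 group each. The other 67 genes, Hpse among them, were at background in every group, and for these a level can only be bounded. Just inside the limit were Mmp20, 0.0011 above its group's background, and Timp4, 0.0072 above, and just outside it were Adam1b, 0.0885 below, and Adamtsl5, 0.146 below. The gelatinase Mmp9, the collagenase Mmp13, the stromelysin Mmp3, the leukocyte sheddase Adam8 and the aggrecanases Adamts4 and Adamts5 were all among the genes at background.

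**Figure D1:**
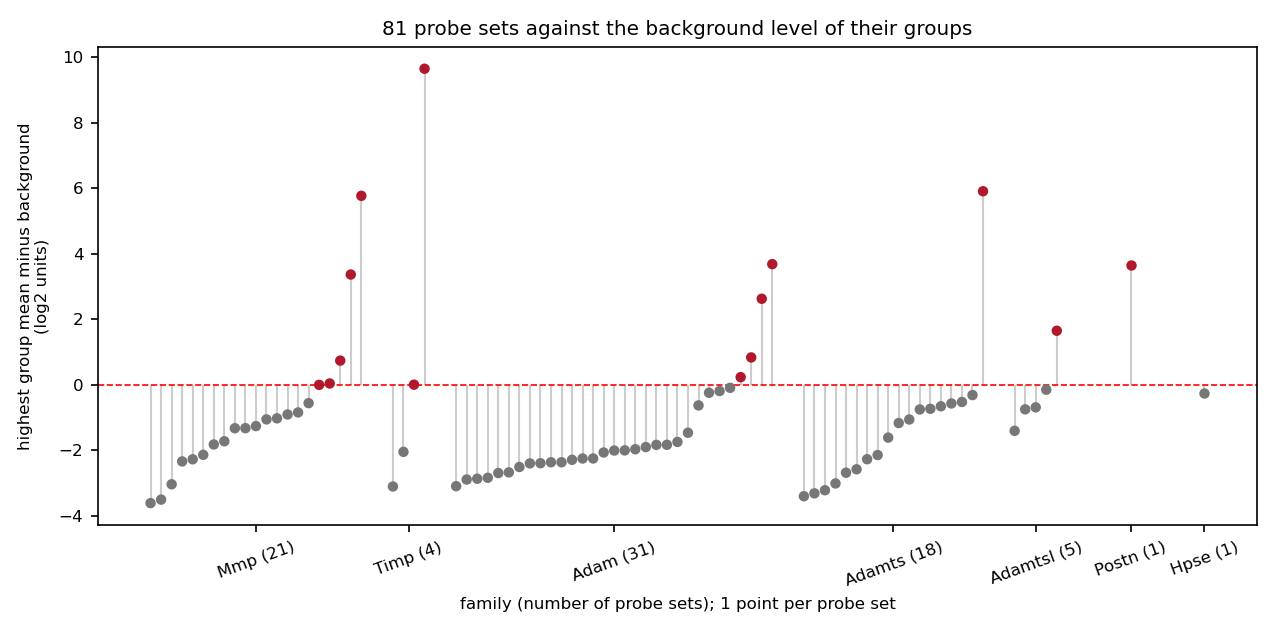
Largest excess of any group mean over the background of the same group, for each of the 81 probe sets (log2 units), sorted within families. Red points lie above background and grey points at or below it. Of the 81 points 14 lie above 0, and Timp2, at the top of its family, stands 9.65 above background.

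The arrays were alike in scale, with medians between 6.87 and 7.13, and samples of a group correlated at 0.931 to 0.986 over all probe sets. The highest correlation between samples of different groups was 0.991, above that of any pair within a group. No pair of samples held equal values at more than 1.38% of probe sets, so none looked like a repeat deposit. All 11 measured microglia markers were above background in every group, but 6 of the 11 were called lower in each gated group than in WT at 12 months, and 1 was higher in gated TAU. The median log2 difference of the 11 was -0.72 in gated APP and -0.68 in gated TAU. Tmem119, a marker of resting microglia, went from a mean of 13.58 in WT to 10.27 in gated APP and 10.69 in gated TAU. WT 12 months replicates 2 and 4 had the highest background of all arrays, 8.70 and 8.72. Calls of family members that depend on them are given without them below. For the partner and marker genes no result without these samples is given.

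Differences were tested with limma on all 22203 probe sets, with Benjamini-Hochberg adjustment over all of them, and called at an adjusted p under 0.05. Gated APP against WT at 12 months gave 5 calls among the 81 genes (6.17%; 4 higher and 1 lower), against 9.08% of all probe sets (5.60% higher and 3.48% lower). Gated TAU against the same WT samples gave 7 (8.64%; 6 higher and 1 lower), against 8.76% (5.09% higher and 3.67% lower). These shares over the whole set of 81 were no higher than those of all probe sets. Both comparisons share the WT samples. Between gated APP and gated TAU, 5 genes (6.17%) were called, 2 higher and 3 lower in APP, against 0.928% of all probe sets (0.626% higher and 0.302% lower). Of the 14 genes above background 4, 6 and 3 were called in these 3 comparisons, where 18.8%, 17.8% and 1.95% of all probe sets above background were. Mmp12 and Adam22 are among the 14 only through gated groups in which they are high, so those counts are a description. Over the 81 genes the median log2 difference from WT was -0.08 in gated APP and 0.005 in gated TAU, where the medians of all probe sets were -0.06 and -0.05. Over the 14 it was 0.09 and 0.60, against -0.04 and -0.07 for all probe sets above background, with the same limit on what it describes.

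Mmp12, the macrophage elastase, differed most from WT among these genes in both gated groups. Its log2 signal was 10.5, 12.45, 12.6 and 10.07 in gated APP and 13.46, 14.11, 14.58 and 12.24 in gated TAU, against 6.76, 7.57, 7.67 and 7.32 in WT at 12 months. Every gated sample was above every ungated one, and all ungated group means were at background. The 4 young WT samples lay at 6.51, 6.19, 6.61 and 6.04, the 3 young APP samples at 8.08, 6.72 and 6.84, and the 4 young TAU samples at 6.98, 7.39, 7.35 and 8.05.

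Because Mmp12 was at background in WT, its difference is a lower bound, with each dim sample set at the background of its own array or at its own value if higher. Mmp12 was at least 8.77-fold higher in gated APP than in WT at 12 months (log2 difference 4.08 ± 0.50 SE, limma adjusted p = 4.59e-06, n = 4 and 4). In gated TAU it was at least 40.1-fold higher (6.27 ± 0.50, adjusted p = 9.98e-09). Against the young samples of the same line it was at least 10.5-fold higher in gated APP and at least 49.2-fold higher in gated TAU. On the deposited values the change from young to gated samples exceeded the change from young to 12 months in WT by 3.20 in APP (adjusted p = 0.0126; 0.0874 with a Y-linked covariate) and by 5.16 in TAU (adjusted p = 7.68e-05), on the log2 scale. Each of these differences subtracts 3 group means that are at background, the WT change of 0.99 included, so their size is not a measured difference of levels.

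Between the gated groups Mmp12 was 4.57-fold lower in APP (log2 difference -2.19 ± 0.50, limma adjusted p = 0.0305), but the samples overlapped, since the lowest TAU sample, at 12.24, was below 2 of the 4 APP samples. This call was lost without gated APP replicate 1 or 4 (adjusted p = 0.115 and 0.128) and without gated TAU replicate 1, 2 or 3 (adjusted p = 0.0742, 0.122 and 0.11). With only the gated groups in the fit the adjusted p was 0.261.

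Mmp2, a gelatinase that cuts denatured collagen and basement membrane proteins, moved in opposite directions in the 2 gated groups. It was at 9.09, 9.13, 9.1 and 9.23 in gated APP, at 10.32, 10.08, 10.3 and 10.11 in WT at 12 months, and at 11.78, 11.3, 11.37 and 10.33 in gated TAU. The 3 groups did not overlap, although the lowest TAU sample stood only just above the highest WT sample. In the young groups Mmp2 ran from 9.70 to 10.40, with group means of 10.08 in WT, 10.08 in APP and 9.87 in TAU.

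Mmp2 was 2.09-fold lower in gated APP than in WT at 12 months (log2 difference -1.07 ± 0.23 SE, limma adjusted p = 0.00275) and 1.99-fold higher in gated TAU (0.99 ± 0.23, adjusted p = 0.00626). Directly compared, gated APP was 4.16-fold lower than gated TAU (-2.06 ± 0.23, adjusted p = 6.2e-06), and that difference stayed called without any single sample, with adjusted p between 1.04e-07 and 5.97e-05. The rise over WT was not called without WT 12 months replicates 2 and 4 (0.89, adjusted p = 0.0773), nor with only the gated TAU and WT samples in the fit (adjusted p = 0.0692). Against its own young samples Mmp2 was 1.92-fold lower in gated APP (adjusted p = 0.0112) and 2.51-fold higher in gated TAU (adjusted p = 0.000261). The first of these was not called without APP 3 months replicate 1 (-0.80, adjusted p = 0.0644).

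Mmp14, the membrane-type metalloproteinase that activates the Mmp2 precursor at the cell surface, was close to background throughout. Its values were 9.02, 8.55, 8.65 and 7.31 in gated APP, 8.53, 8.42, 9.01 and 8.31 in gated TAU and 8.12, 7.21, 7.92 and 7.19 in WT at 12 months. The TAU samples were all above the WT samples, and gated APP replicate 4 was within the WT range. Mmp14 was at least 1.15-fold higher in gated TAU (log2 difference 0.96 ± 0.28, limma adjusted p = 0.0362), while the difference in gated APP, 0.77 ± 0.28, had an adjusted p of 0.0994. Without gated APP replicate 4 the APP difference was 1.13, with an adjusted p of 0.00293. The TAU call was lost without WT 12 months replicate 2 or 4 or gated TAU replicate 1, 2 or 3, with adjusted p from 0.0552 to 0.124, without both of those WT samples (adjusted p = 0.41) and with only these groups in the fit (adjusted p = 0.0622). With a Y-linked covariate the APP difference was also called (0.92, adjusted p = 0.0298). Against young TAU, Mmp14 was higher in gated TAU (log2 difference 1.10, with young TAU at background, adjusted p = 0.0102), and this stayed called without any 1 sample of these groups (adjusted p from 0.0121 to 0.043). Between the gated groups the log2 difference was -0.19, with a 95% interval from -0.77 to 0.40.

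Mmp11, a stromelysin of stromal cells, and Mmp20, the enamel protease enamelysin, were above background in young WT alone, by the small margins of a limit that differs between groups. Mmp11 ran from 6.57 to 8.08 and Mmp20 from 7.35 to 8.15 over all 23 samples, and neither was called in any of the 10 comparisons.

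Timp2 was the inhibitor with a called change, and it rose in both gated groups. It was at 17.5, 17.07, 17.39 and 16.91 in gated APP and at 17.61, 17.56, 17.3 and 17.44 in gated TAU, against 15.97, 15.25, 16.15 and 15.35 in WT at 12 months. All 8 gated samples were above all 15 others, of which the highest stood at 16.15. In the young groups it ran from 15.08 to 15.55 in WT, from 14.56 to 15.49 in APP and from 14.66 to 15.86 in TAU.

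Timp2 was 2.90-fold higher in gated APP than in WT at 12 months (log2 difference 1.54 ± 0.25 SE, limma adjusted p = 0.000164) and 3.48-fold higher in gated TAU (1.80 ± 0.25, adjusted p = 3.3e-05). The gated groups differed by -0.26 on the log2 scale, APP minus TAU, with a 95% interval from -0.78 to 0.26 (adjusted p = 0.864). The rise from young to gated samples exceeded that from young to 12 months in WT by 1.83 in APP (adjusted p = 0.00368) and by 1.96 in TAU (adjusted p = 0.00162). Mmp2 and Timp2, whose products form a complex, thus both rose in gated TAU, whereas in gated APP Timp2 rose and Mmp2 fell.

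The other inhibitors were not called in any comparison. Timp1, which is induced in many inflamed tissues, ran from 4.27 to 5.15 and the matrix-bound Timp3 from 5.36 to 5.97, both below background in every sample. Timp4 ran from 7.04 to 8.29. It was above its group's background in young TAU alone, by the margin given above, and was at 7.07, 7.26, 7.64 and 7.77 in gated TAU against 8.12, 7.89, 7.87 and 7.86 in WT at 12 months, a log2 difference of -0.50 with an adjusted p of 0.218.

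**Figure D2:**
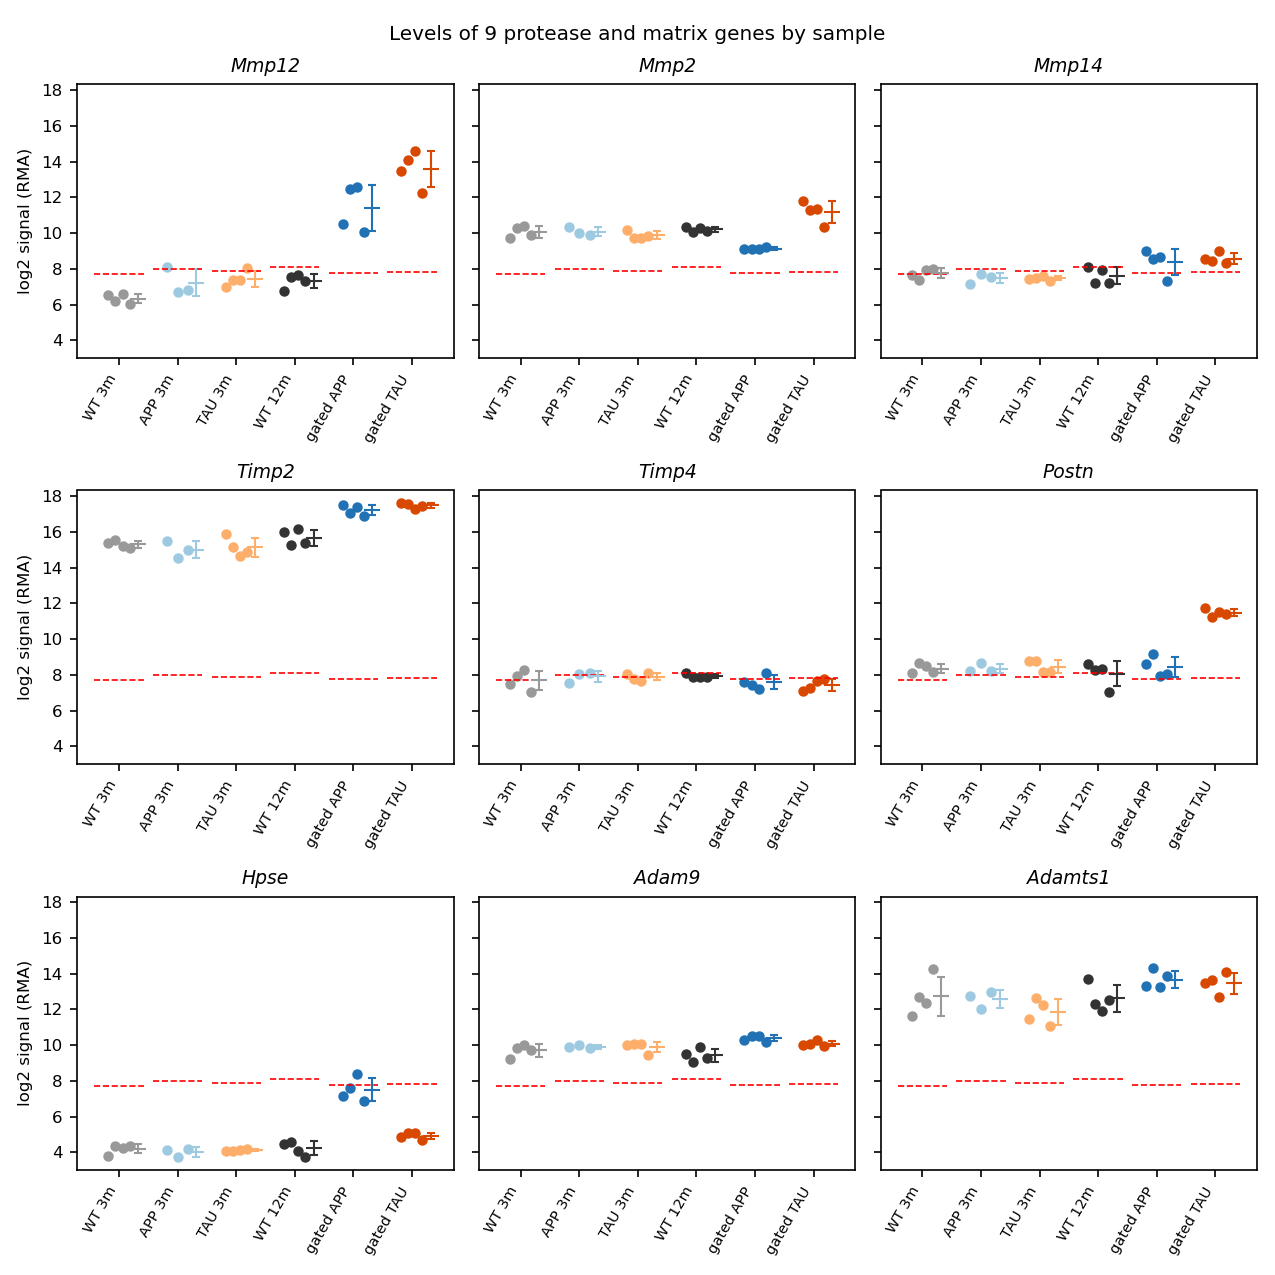
Log2 signal of 9 genes in each of the 23 samples (points), with the group mean and SD (bars) and the background of each group (red dashed lines). Mmp12 and Timp2 are higher in every gated sample than in every other sample, Postn is high in gated TAU alone, and Hpse stands between 6.90 and 8.40 in gated APP, with 1 sample above its array's background.

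Periostin separated the gated groups most clearly. Postn was at 11.74, 11.22, 11.53 and 11.43 in gated TAU, against 8.61, 9.14, 7.94 and 8.04 in gated APP and 8.6, 8.27, 8.34 and 7.06 in WT at 12 months. Every gated TAU sample was more than 2 log2 units above the highest of the other 19 samples, which was 9.14. The young samples ran from 8.08 to 8.67 in WT, from 8.19 to 8.65 in APP and from 8.14 to 8.80 in TAU.

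Postn was at least 7.42-fold higher in gated TAU than in WT at 12 months (log2 difference 3.41 ± 0.29 SE, limma adjusted p = 2.72e-08) and 8.11-fold higher than in young TAU (adjusted p = 1.57e-07). In gated APP the log2 difference from WT was 0.37 ± 0.29 (adjusted p = 0.501). Gated APP was 8.27-fold lower than gated TAU (-3.05 ± 0.29, adjusted p = 8.29e-07), and leaving out any 1 sample kept this difference between -3.28 and -2.88. The change from young to gated in TAU exceeded the WT change with age by 3.31 (adjusted p = 2.03e-05).

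Hpse went the other way. It was at 7.14, 7.59, 8.4 and 6.9 in gated APP, at 4.85, 5.07, 5.07 and 4.7 in gated TAU and at 4.49, 4.59, 4.06 and 3.74 in WT at 12 months. The 3 groups did not overlap, and all other ungated samples lay between 3.72 and 4.37. Only gated APP replicate 3 was above the background of its own array, so no fold is given and the differences that follow are between signals at background, whose size does not measure a level. On the deposited log2 values Hpse was 3.29 ± 0.25 higher in gated APP than in WT (limma adjusted p = 2.34e-09) and 2.59 higher than in gated TAU (adjusted p = 8.29e-07). The difference of gated TAU from WT was 0.70 (adjusted p = 0.0824), and from young TAU it was 0.79 (adjusted p = 0.0349), which was lost without any 1 of TAU 3 months replicates 1 to 4 or gated TAU replicates 1 to 3 (adjusted p from 0.0595 to 0.0889).

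Among the ADAMs, Adam9, a widely expressed sheddase, was at 10.29, 10.52, 10.53 and 10.2 in gated APP, at 10, 10.05, 10.31 and 9.96 in gated TAU and at 9.5, 9.04, 9.89 and 9.26 in WT at 12 months. Both gated groups were above WT without overlap. Adam9 was 1.95-fold higher in gated APP (log2 difference 0.96 ± 0.19 SE, limma adjusted p = 0.00167) and 1.58-fold higher in gated TAU (0.66 ± 0.19, adjusted p = 0.035). Young WT samples, at 9.22 to 10.03, reached the gated TAU range, and against the young samples of the same line Adam9 was not called in APP (0.48, adjusted p = 0.165) or TAU (0.18, adjusted p = 0.623). Without WT 12 months replicates 2 and 4 neither difference from WT was called (adjusted p = 0.0778 in APP and 0.389 in TAU). The TAU call was also lost without any 1 of 6 samples (WT 12 months replicate 1, 2 or 4, gated TAU replicate 1, 2 or 3), with adjusted p from 0.0593 to 0.135, with arrays centred on their medians (adjusted p = 0.0561) and with only these groups in the fit (adjusted p = 0.111).

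Adam17, the enzyme that releases tumour necrosis factor from the cell surface, was not called against WT at 12 months. It was at 10.9, 10.83, 10.47 and 10.83 in gated APP, at 11.19, 11.09, 11.4 and 11.35 in gated TAU and at 11.14, 11.06, 11.25 and 11.07 in WT at 12 months. All gated APP samples were below all WT and gated TAU samples, yet the log2 differences were small: -0.37 against WT (limma adjusted p = 0.227) and -0.50 against gated TAU (adjusted p = 0.296). Against young APP, at 11.74, 11.41 and 11.32, Adam17 was 1.66-fold lower in gated APP (-0.73 ± 0.19, adjusted p = 0.0122), a call lost without APP 3 months replicate 1 (adjusted p = 0.0752), with only these groups in the fit (adjusted p = 0.0533) and with a Y-linked covariate (adjusted p = 0.0525).

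Adam22, an ADAM without protease activity that binds the secreted protein Lgi1 at synapses, was at 7.8, 7.84, 8.47 and 8.14 in gated TAU and at 6.57, 7.59, 7.41 and 7.38 in young TAU. It was at least 1.04-fold higher in gated TAU than in young TAU (log2 difference 0.83, limma adjusted p = 0.0219), and 0.55 higher than in WT at 12 months, which was not called (adjusted p = 0.172). The first difference was lost without TAU 3 months replicate 1 (adjusted p = 0.093) or gated TAU replicate 3 (adjusted p = 0.0828). Adam15, an ADAM with an integrin-binding disintegrin domain, ran from 8.08 to 9.44 over all samples and was not called in any of the 10 comparisons.

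Adamts1, a secreted protease that cuts proteoglycans such as versican, varied widely within groups. It was at 13.29, 14.29, 13.25 and 13.84 in gated APP and at 13.49, 13.62, 12.68 and 14.09 in gated TAU, against 13.67, 12.32, 11.9 and 12.54 in WT at 12 months, and a young WT sample reached 14.23. Neither gated group was called against WT (log2 differences 1.06 and 0.86, adjusted p = 0.181 and 0.291). Against young TAU, at 11.44, 12.64, 12.22 and 11.08, gated TAU was 3.08-fold higher (1.63 ± 0.47, limma adjusted p = 0.0207), without overlap; the call was lost without TAU 3 months replicate 1 or 4 or gated TAU replicate 2 or 4 (adjusted p from 0.0535 to 0.079). Adamtsl4, an ADAMTS-like protein without a protease domain, ran from 8.72 to 9.79 and was called in no comparison.

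**Figure D3:**
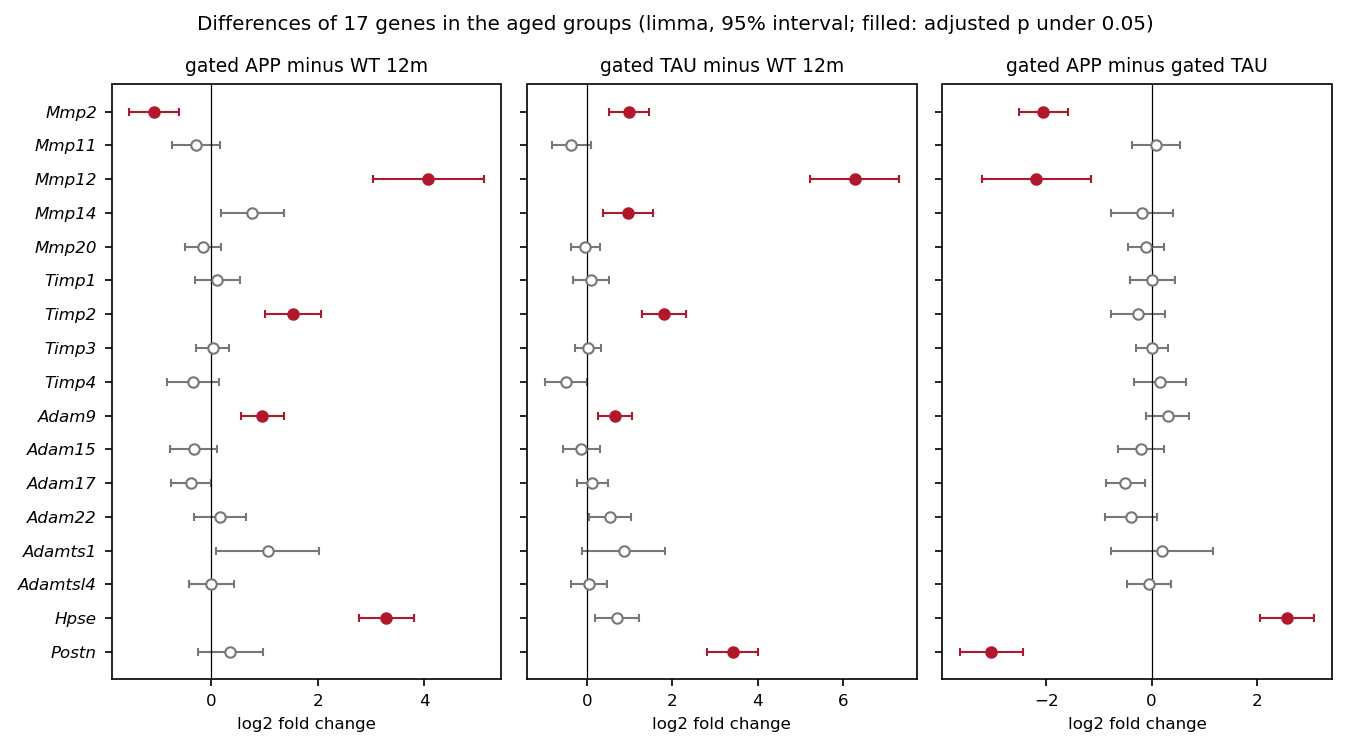
Log2 difference of 17 genes between the aged groups, with 95% intervals; filled red points have a limma adjusted p under 0.05. In the panel of gated APP minus gated TAU, Mmp12, Mmp2 and Postn are called lower and Hpse is called higher in APP, and the interval of Timp2 spans 0.

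The comparisons among ungated samples called none of the 81 genes. In WT at 12 against 3 months 0.0360% of all probe sets (0.0658% of those above background) were called, and in young APP or young TAU against young WT 0% were. At an unadjusted p under 0.05 limma gave 2, 4 and 4 of the 81 genes in these 3 comparisons, and the fits with array weights and with a trended prior called none of those above background either. Of these 10 differences, 1 belonged to a gene above background in any group: Mmp12 in young TAU, with a log2 difference from young WT of 1.11 ± 0.50 (adjusted p = 0.998) at levels that are background in both groups.

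Against the young samples of the same line, gated APP had 6 calls among the 81 genes (7.41%; 12.1% of all probe sets and 25.6% of those above background) and gated TAU had 11 (13.6%; 13.5% and 27.0%). The difference between a line's change to its gated samples and the WT change with age was called for 3 genes in APP (3.70%; 3.80% and 8.55%), which were Mmp12, Timp2 and Hpse. In TAU it was called for 5 (6.17%; 3.75% and 7.91%), which were Mmp12, Mmp2, Postn and Timp2, higher, and Adam3, a sperm surface gene at background, lower. For Mmp2 in TAU that difference was 1.20 ± 0.32 (adjusted p = 0.0362), and it was lost without any 1 of 10 samples, with adjusted p from 0.0644 to 0.0839. These were WT 3 months replicates 2 and 3, TAU 3 months replicates 2, 3 and 4, WT 12 months replicates 2 and 4 and gated TAU replicates 1, 2 and 3. Without both WT 12 months replicates 2 and 4 the Mmp2 difference was 1.09 (limma adjusted p = 0.151).

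Partner genes of these families were followed in 6 lists. In the plasminogen system, whose protease plasmin can activate Mmp precursors, 3 of 10 measured genes rose in gated APP and none fell, and 3 rose and 1 fell in gated TAU. For this list and those that follow, the base is 9.08% of all probe sets called in gated APP (5.60% higher) and 8.76% in gated TAU (5.09% higher), or 18.8% and 17.8% of those above background, where 4 of these 10 genes lie. Plaur, the receptor of urokinase, was 15.4-fold higher in gated APP and 7.70-fold higher in gated TAU than in WT at 12 months (limma adjusted p = 3.05e-06 and 2e-04). Plau, urokinase itself, was 2.25-fold and 3.42-fold higher (adjusted p = 0.00225 and 2.87e-05). The annexin gene Anxa2, a plasminogen receptor component, was at least 3.14-fold higher in gated APP. It was also called higher in gated TAU, with a mean of 8.06 against 6.06 in WT at 12 months, the latter at background. Its partner S100a10 fell in TAU at background levels. The list's median log2 difference was -0.16 in gated APP and 0.14 in gated TAU, where all probe sets had medians of -0.06 and -0.05. None of 7 proprotein convertases, such as Furin, which remove the inhibitory pieces of ADAMs and membrane-type Mmps, was called in these comparisons.

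Of 13 membrane regulators, 6 of them above background, 3 rose in gated APP and 2 in gated TAU, against the same base of 9.08% and 8.76% called. Their median log2 difference was 0.11 in both. Bsg, which induces Mmps in neighbouring cells, was 3.07-fold higher in gated APP (limma adjusted p = 0.000165). Rhbdf2, the iRhom that brings Adam17 to the surface of myeloid cells, was at least 1.28-fold higher in gated APP (adjusted p = 0.0235) and at least 1.47-fold higher in gated TAU (adjusted p = 0.00626). Cd44, which anchors Mmps at the surface, was called in both groups, from 5.11 in WT to 8.07 in gated APP and 7.24 in gated TAU, the last of these below background.

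Of 17 genes for proteins that Adam17 can shed, of which 10 lie above background, 1 rose and 3 fell in gated APP, and 3 rose and 3 fell in gated TAU. Trem2, the lipid-sensing receptor of microglia, was 3.07-fold higher in gated APP and 1.87-fold higher in gated TAU than in WT at 12 months (limma adjusted p = 1.41e-05 and 0.00933). Tnf, the cytokine gene, was 6.15-fold higher in gated TAU (adjusted p = 8.55e-05) and was 3.32-fold lower in gated APP than in gated TAU (adjusted p = 0.0275). Lag3, an immune checkpoint receptor, was 3.55-fold higher in gated TAU (adjusted p = 0.000112) and also lower in gated APP than in gated TAU (adjusted p = 0.00137). Il6ra, Csf1r and Siglece fell in both groups, with Il6ra, a cytokine receptor, 3.29-fold lower in gated APP and 2.29-fold lower in gated TAU. The medians of the list, 0.07 and -0.10, were close to those of all probe sets.

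For heparan sulfate, the substrate of heparanase, 5 of 28 genes rose in each gated group and none fell, against 5.60% and 5.09% of all probe sets called higher. Of the 28 genes 13 lie above background, and Gpc1, among the 5 in gated TAU, is at background in all groups. The core protein genes Sdc3 and Sdc4 and the sulfatase Sulf2 were called in both. Sdc3 was at least 8.74-fold higher in gated APP and at least 4.36-fold higher in gated TAU than in WT at 12 months (limma adjusted p = 1e-11 and 2.4e-09), Sdc4 was 6.93-fold and 7.41-fold higher, and Sulf2 was at least 2.30-fold and at least 3.98-fold higher. Gusb, a lysosomal enzyme that removes glucuronic acid from these chains, was 5.29-fold and 2.40-fold higher. Like Hpse, Sdc3 and Gusb were also higher in gated APP than in gated TAU (2.01-fold and 2.21-fold, adjusted p = 0.0259 and 0.013). The medians of the list were 0.02 and 0.04.

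Of 34 matrix component genes, 3 were higher and 2 lower in gated APP, and 1 was higher and 1 lower in gated TAU. The higher ones, Fn1, Thbs1 and Lamc1, were at background in all groups. Of the lower ones, Sparc, a collagen-binding glycoprotein, was 1.35-fold lower in gated APP (limma adjusted p = 0.0288), and the basement membrane gene Nid2 was called lower in both gated groups at background levels (means of 6.55 in gated APP, 6.57 in gated TAU and 7.67 in WT).

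Markers of other cells moved with some of these results. Of 10 border macrophage markers 4 were above background in each aged group, and their summed level, as log2, was 11.41 to 11.94 in WT at 12 months, 11.38 to 11.88 in gated APP and 12.54 to 14.62 in gated TAU, the group with high Postn and Mmp2. Ms4a7 was at 11.48, 12.23, 14.27 and 11.17 in gated TAU, 11.8-fold above WT (limma adjusted p = 1.82e-05). Without Ms4a7 the sum was 11.25 to 12.42 in gated TAU, 11.26 to 11.70 in WT at 12 months, 10.95 to 11.31 in gated APP and 12.09 to 13.04 in young TAU, where Postn was at 8.14 to 8.80. Mrc1 had means of 10.20 in WT at 12 months, 9.04 in gated APP and 10.72 in gated TAU, and Cbr2 of 8.89, 7.66 and 9.03, the same order of groups as Mmp2. Other markers did not keep this order. In the same groups Pf4 had means of 9.32, 9.345 and 9.48, and Ms4a7 of 8.73, 9.73 and 12.29. Folr2, above background in gated APP alone, had means of 7.05, 8.005 and 7.52. Of the 10 markers 1 was called higher and 1, Cbr2, lower in gated APP than in WT at 12 months (limma adjusted p = 0.0427 for Cbr2). Mrc1 was 1 of 2 markers called lower in gated APP than in gated TAU (limma adjusted p = 0.0243). Cd163, Lyve1 and F13a1 were at background in all 6 groups.

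Markers of fibroblasts, pericytes and endothelial cells, which are known sources of Postn and Mmp2, had summed levels of 10.71 to 10.83 in gated TAU, 10.88 to 11.84 in gated APP and 10.61 to 11.05 in WT at 12 months. Col1a2, Col3a1, Dcn, Lum and Pdgfrb were at background in all 6 groups, and Col1a1 was above it. Of the 12 measured markers of this list 1 was called higher and 1 lower in gated APP than in WT at 12 months. The endothelial gene Pecam1 had means of 6.52 in gated APP and 7.69 in WT at 12 months, both at background. Flt1, an endothelial receptor, was called higher in gated APP, the group with the highest Hpse signal, with a mean of 9.41 against 7.33 in WT at 12 months (limma adjusted p = 5.18e-05). The astrocyte gene Gfap was called higher there too, at 8.17, 7, 7.39 and 9.08 against 5.43 to 5.62 in WT (adjusted p = 1.31e-05) and 5.57 to 6.03 in gated TAU (adjusted p = 0.000861), while the summed astrocyte markers were 12.40 to 13.58 in gated APP and 12.18 to 14.01 in WT. The NK cell gene Klrb1c was called higher in gated TAU, with a mean of 9.65 against 8.03 in WT (adjusted p = 0.0443), and was the 1 of 7 T, NK and B cell markers above background. Neutrophil markers, of which S100a9 was above background in WT at 12 months, were all at background in both gated groups. Gated TAU replicate 4 had the highest sum of neuron markers of all samples, 13.09, and the lowest Mmp12 and Mmp2 of its group. It was also the lowest of its group for Mmp14 and Adam9, but not for Postn or Timp2, and was the highest for Adamts1. Without this sample Mmp12 in gated TAU was 6.72 and Mmp2 was 1.28 above WT on the log2 scale. The part of other cells in any of these differences was not tested, and in bulk samples more cells of a type and more RNA per cell cannot be told apart.

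**Figure D4:**
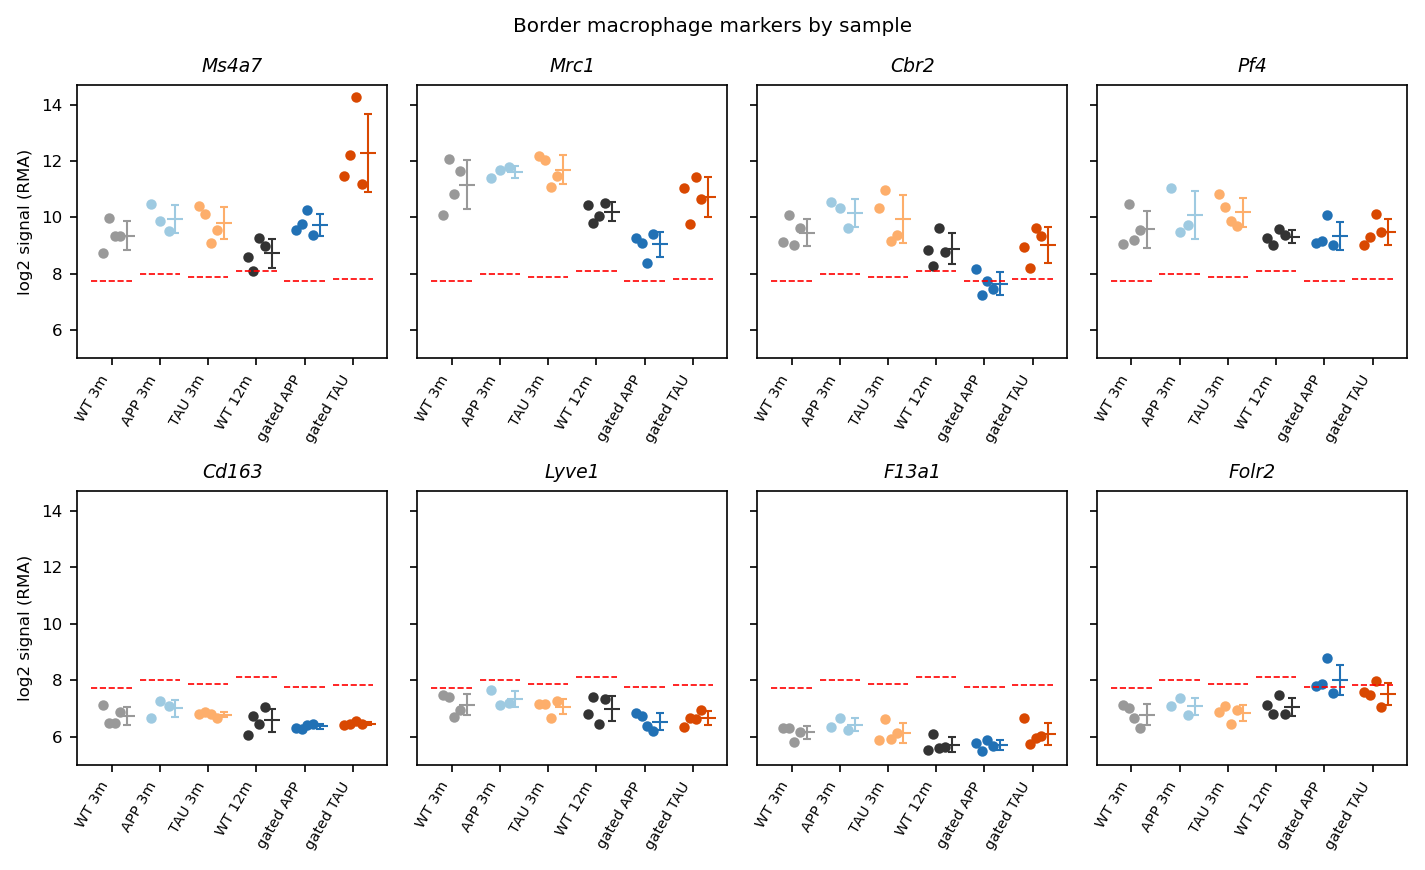
Log2 signal of 8 border macrophage markers in each of the 23 samples (points), with group mean and SD (bars) and the background of each group (red dashed lines). Ms4a7 is at 11.17 or higher in gated TAU and at 10.47 or lower elsewhere, while Cd163, Lyve1 and F13a1 have all their group means below the background line.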

How the data were processed

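Labelled RNA (5 ng of total RNA per sample, 3′ kit, per the labels' protocols) was read on 1-colour arrays. Each deposited value is a log2 signal of 1 probe set that the authors computed with RMA (background correction, normalization between arrays, summary per probe set) in the Transcriptome Analysis Console, per the submitters' processing notes; versions and genome build are not given in the sources used here. RMA compresses differences near background. Symbols came from the platform annotation (19572 of 22203 probe sets).

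All 23 samples entered 1 limma 3.58.1 fit (R 4.3.3, 6 group means, eBayes, 17 residual and 5.11 prior degrees of freedom), tested on simulated data. For gated APP against WT at 12 months, that test called 49 of 100 probe sets shifted by 1 log2 unit and 90 of 100 shifted by 2. In each case 8 unshifted probe sets were called as well. Tests were two-sided, and the number of arrays limits the precision (median SE 0.226). The named genes were the members above background that were called, all Timps, Mmp2, Mmp12, Hpse and Postn, and the highest members of each family; of a list, at most 4 called genes above background per direction. Other genes named were chosen after their values were seen. The members and lists were chosen with earlier results of these data known. Of 196 listed genes 181 had a probe set. One ADAM gene is not reported here. Alternatives were array centring, array weights, a trended prior, fewer probe sets or groups, a Y-linked covariate, a replicate block and leaving out samples.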

Additional observations from a re-analysis of the deposited data

Results flagged for a closer look

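A gap test (Dixon) on the 17 named genes within groups of 4 set 6 of 85 groups apart, where chance alone gives about 1 in 20. Adam17 was at 10.47 in gated APP replicate 3, below the 10.83 to 10.9 of the others. Adam9 was at 9.47 in young TAU replicate 4, below 10.02 to 10.07. Adamtsl4 was at 9.70 in gated TAU replicate 4, above 9.32 to 9.36. Mmp11 was at 8.08 in young WT replicate 4, above 7.67 to 7.68, and this sample carried it over the background limit. Timp1 was at 4.27 in gated TAU replicate 2, below 4.67 to 4.73 and at background. Timp4 was at 8.12 in WT 12 months replicate 1, above 7.86 to 7.89.

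Some genes differed between the gated groups, or in their change from young to gated samples relative to WT, by a limma test of the difference itself. These tests do not separate line from age or gate. The gated groups were taken at 12 months in APP and 9 months in TAU, and the WT change has no gate. Gated APP minus gated TAU was 2.59 for Hpse, -2.19 for Mmp12, -2.06 for Mmp2 and -3.05 for Postn, on the log2 scale. The change from young to gated samples minus the WT change with age was 3.46 for Hpse, 3.20 for Mmp12 and 1.83 for Timp2 in APP. In TAU it was 5.16 for Mmp12, 1.20 for Mmp2, 3.31 for Postn and 1.96 for Timp2. The values for Hpse are between signals at background in all groups, and those for Mmp12 against the WT change subtract groups at background, so neither measures the size of a difference in level.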

How the results depend on the processing

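Counts here are of the 14 members above background, in the 10 comparisons, with no weight as support, since Mmp12 and Adam22 are among them through gated groups alone. In gated TAU against WT at 12 months 6 were called (17.8% of all probe sets above background), and 3 without WT 12 months replicates 2 and 4, 3 with only these groups in the fit. Gated APP against young APP gave 4 calls (25.6% of all such probe sets) and 8 with array weights. The labels do not tie samples by replicate number, so the numbers were not taken as pairs in the main fit. Even so, 28 of 55 same-numbered pairs had deviations correlated at r above 0.1. Over the 55 pairs r ran from -0.52 to 0.55, with a median of 0.10, against a median of -0.03 in other pairs. What samples of the same number share was not tested. With the replicate block the count for gated APP against young APP was 5, with Mmp14 gained (1.02, limma adjusted p = 0.0169), and no other count changed. Leaving out 1 sample gave 4 to 5 calls in gated APP and 4 to 6 in gated TAU against WT, 2 to 3 between the gated groups, 2 to 5 in gated APP and 5 to 8 in gated TAU against their young samples, 2 to 3 and 3 to 4 for the differences of changes, and 0 among ungated groups. Of 586 refits of the 35 called values of named genes 57 lost the call and none turned sign; of 2240 refits of 135 uncalled values 19 gained one. With the Y-linked covariate, Mmp12 in APP relative to the WT change had an adjusted p of 0.0874 and Mmp2 in TAU one of 0.107. The cause of these changes was not tested. Values near background are compressed and bound a level only, and the number of samples limits what could be called.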

Other observations

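Some family members at background in every group were nevertheless called by limma, and their values are given without a fold. Adam3, a sperm surface gene, was at 6.2, 6.53, 6.72 and 6.32 in gated TAU and at 7.72, 7.51, 6.9 and 7.79 in WT at 12 months, a log2 difference of -1.04 (adjusted p = 0.00117), and it was 0.87 higher in gated APP than in gated TAU (adjusted p = 0.0275). Adam4, a gene of the testis, was 0.69 lower in gated APP than in young APP (log2 difference -0.69, adjusted p = 0.0412). Mmp25, a membrane-type metalloproteinase of leukocytes, was 0.63 higher in gated TAU than in young TAU (adjusted p = 0.031), and the neutrophil collagenase Mmp8 was lower there (log2 difference -0.83, adjusted p = 0.0399). Mmp8 ran from 4.64 to 6.67 over all samples.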
